A study of Rattus norvegicus with 6 samples.

Results

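Chemokine ligands are small secreted proteins that attract leukocytes. The 10 genes described here, Ccl2, Ccl3, Ccl5, Ccl6, Ccl21, Cxcl1, Cxcl10, Cxcl12, Cxcl16 and Pf4, were chosen by name, as the genes of the table whose symbol equals one of these. The names were picked with earlier results of these data known. All 10 were present among the 19616 genes of the table. Whole liver of 6 male Sprague-Dawley rats was sequenced after ribosomal RNA was depleted, with 1 library per rat. The FL group (rats FL2, FL5 and FL12) had received intraperitoneal CCl4, a hepatotoxin, mixed with an equal volume of olive oil, at 2 mL/kg in 2 injections a week for 5 weeks, a treatment that scars the liver. The CL group (rats CL5, CL6 and CL7) had received the same volume of olive oil. Age was not given in the labels. Values are FPKM, in which fragment numbers are divided by transcript length and by library size, so levels of different genes are compared per length. Where 3 values are given for a group, they follow the order of the rats above, CL5, CL6 and CL7 or FL2, FL5 and FL12.

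Chemokines bind heparan sulfate on cell surfaces and matrix, and leukocytes follow the bound gradient through receptors coupled to G proteins. CC and CXC ligands differ in the spacing of their first cysteines, and each class has its own receptors, most of which take several ligands. In injured liver, Kupffer cells, stellate cells, endothelial cells and hepatocytes can all produce chemokines, and the monocytes, neutrophils and lymphocytes that these ligands attract take part in both inflammation and scarring.

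The comparison asked which of the ligands differed in level between livers given CCl4 and livers given oil. Ccl21, Cxcl16, Ccl2 and Pf4 rose in the FL group, with mean FPKM 17.6, 4.06, 6.28 and 3.68 times those of the CL group. The ratio for Ccl21 depended on the rats, since its FL values ran from 5.45 to 29.0 FPKM. Ccl6 was higher in each FL rat than in each CL rat, though not with either scaling of the libraries, and did not pass the test, and in the remaining 5 ligands (Ccl3, Ccl5, Cxcl1, Cxcl10 and Cxcl12) the groups overlapped. A gene was called at an adjusted p under 0.05 in limma (Benjamini-Hochberg over 14864 genes averaging 0.1 FPKM or more) and a fold change of at least 2, with 3 rats in each group. All 10 ligands averaged more than 0.1 FPKM in CL alone, so none was tested only because of its FL values. Of the 10, 4 were called higher, beside 1381 of all 14864 genes (9.29%), and 0 were called lower, beside 139 (0.935%). The 10 were chosen with earlier results of these data known, so their share of calls is not independent of these data. Of the 26 other chemokine ligands in the table, 12 were tested and 1 was called higher. The 4 calls held with median scaling, and that of Ccl2 was lost with quantile normalization. The 3 FL values lay above the 3 CL values without overlap in 5 ligands, beside 5311 of all genes (35.7%), and in 4 ligands with median scaling or quantile normalization, where Ccl6 overlapped, beside 22.4% and 15.2% of all genes.

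The log2 fold change was positive in 10 of 10 ligands, with a median of 0.89, but that of all genes tested was also above 0, at 0.29. Scaling each library to a common median brought the median of all genes to 0.08 and that of the ligands to 0.70, and quantile normalization brought them to -0.04 and 0.59. Under both scalings Ccl5, Cxcl10 and Cxcl12 took negative values. Of the genes called, 90.9% were higher in FL, against 82.0% with median scaling (826 higher and 181 lower) and 66.2% with quantile normalization (453 higher and 231 lower). The number called higher also rested on single libraries, and was 682 without FL5, 717 without CL7 and 895 without FL12, while the number called lower was 80 without CL6 and 80 without CL7. Fold changes were taken on log2(FPKM + 0.1), which understates them in genes of low level. Summed FPKM over all genes were 309425 in CL5, 340467 in CL6, 315259 in CL7, 309226 in FL2, 272350 in FL5 and 272110 in FL12. The paper states a minimum number of clean reads, without saying which libraries it covers. The files give no number of reads for each library, so the depth behind each value is unknown. Relative to CL5, taken as 1.0, the steps between low values of 114 U6 genes gave a depth of 0.656 in CL6, 0.84 in CL7, 0.677 in FL2, 0.75 in FL5 and 0.677 in FL12.

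**Figure D1:**
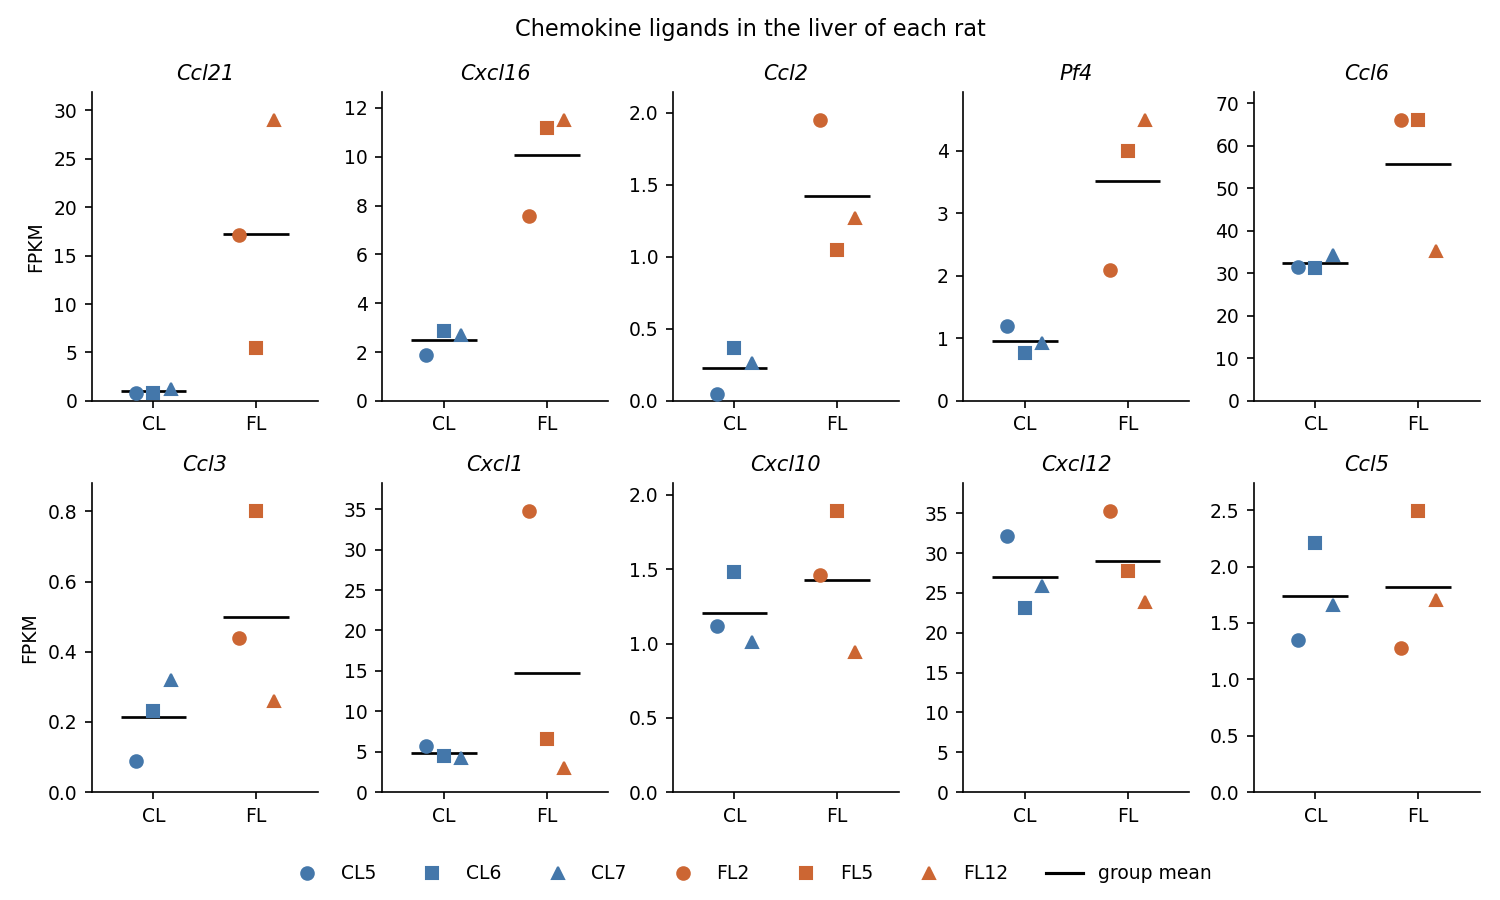
FPKM (vertical axis, linear from 0, with its own scale for each gene) of the 10 chemokine ligands in the 3 CL rats (blue) and 3 FL rats (orange), with 1 marker per rat and a line at each group mean. The groups do not overlap in Ccl21, Cxcl16, Ccl2, Pf4 and Ccl6, and Cxcl1 reaches 34.74 FPKM in FL2 against 6.52 in FL5 and 2.97 in FL12.

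In the CL livers most of the ligand signal per length came from Ccl6 and Cxcl12, with means of 32.4 and 27.0 FPKM, or 44.9% and 37.5% of the summed FPKM of the 10. Their ranges overlapped, at 31.3 to 34.3 and 23.1 to 32.1 FPKM, so their order was not separated beyond the spread. Cxcl1 followed at a mean of 4.82 FPKM and Cxcl16 at 2.48 FPKM, each apart from its neighbours in the order except that Cxcl16 and Ccl5 (1.74 FPKM) overlapped. Ccl5 and Cxcl10 (1.2 FPKM) overlapped too, as did Cxcl10, Ccl21 (0.98 FPKM) and Pf4 (0.957 FPKM). These overlaps are of group ranges, and within each CL rat Cxcl16 was above Ccl5 and Ccl5 above Cxcl10. Ccl2 and Ccl3, at 0.227 and 0.213 FPKM, overlapped at the bottom. In the FL livers Ccl6 and Cxcl12 again led, at 55.8 and 29.0 FPKM, with their ranges just apart (35.3 to 66.0 and 23.8 to 35.2 FPKM). By group means Ccl21 stood at rank 3 in the FL livers, from rank 7 in the CL livers, and its share of the summed FPKM was 12.7% against 1.36%. Its place and share varied among the FL rats. Ccl21 was below Cxcl1 in FL2 (17.16 against 34.74 FPKM) and in FL5 (5.45 against 6.52 FPKM). In FL12 it was above Cxcl12 (29.00 against 23.83 FPKM). By group ranges the order below Ccl6 was loose. The ranges of Cxcl12, Ccl21 (17.2 FPKM) and Cxcl1 (14.7 FPKM) overlapped, as did those of Cxcl1 and Cxcl16 (10.1 FPKM). Pf4 (3.52 FPKM) lay apart from Cxcl16 but overlapped with Ccl5 (1.82 FPKM), Ccl5 with Cxcl10 (1.43 FPKM) and Cxcl10 with Ccl2 (1.42 FPKM), while Ccl3 (0.5 FPKM) was apart from Ccl2. Within each FL rat, though, Cxcl12 was above Cxcl1, narrowly in FL2, and Pf4 was above Ccl5. The sum of the 10 was 75.9, 67.6 and 72.5 FPKM in the CL rats and 168, 127 and 111 FPKM in the FL rats. No FL rat led throughout, since FL2 had the highest FL value of 4 ligands, FL5 of 3 and FL12 of 3.

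Ccl21 guides dendritic cells and T cells that carry the receptor Ccr7 into lymphatic vessels and lymph nodes. Ccl21 (ENSRNOG00000034290, chromosome 5) measured 0.80, 0.86 and 1.28 FPKM in the CL rats, and 17.16, 5.45 and 29.00 FPKM in the FL rats. The CL rats lay close together near 1 FPKM, each FL rat was higher, and within the FL group FL5 was far below FL12. The group means were 0.98 ± 0.262 FPKM in CL and 17.2 ± 11.8 FPKM in FL (SD, n = 3 each). Ccl21 had the largest fold change of the 10, a log2 fold change of 3.73 (SE 0.53, 95% CI 2.50 to 4.96, adjusted p = 0.00531), or 3.44 above the median of all genes. It was called in 14 of 14 alternative settings, with adjusted p between 0.00381 and 0.0265. Its size rested on single rats, and the log2 fold change was 4.40 without FL5 and 3.21 without FL12. Reads were counted where they mapped uniquely, so a near-identical copy of Ccl21 in the genome, if present, would make its level uncertain.

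Markers of lymphatic endothelium, which makes Ccl21, and the receptor of Ccl21 were set beside it. Of the 6 lymphatic endothelial markers, 6 were tested and 0 called in limma (4 had an unadjusted p and 1, Reln, an adjusted p under 0.05), and their median log2 fold change was 0.38 beside 0.29 for all genes. Their summed levels were 55.8, 55.7 and 52.3 FPKM in the CL rats and 73.2, 65.6 and 76.3 FPKM in the FL rats. Most of the sum came from Prox1, also expressed by hepatocytes, and Lyve1, also expressed by sinusoidal endothelium and named after its values were seen. Prox1 was the most abundant, at 25.98, 22.07 and 24.45 FPKM in the CL rats and 31.75, 28.75 and 32.32 FPKM in the FL rats (log2 fold change 0.36, adjusted p = 0.0633). Mmrn1 and Pdpn, more restricted markers chosen after their values were seen, were low. Mmrn1 measured 0.18, 0.08 and 0.13 FPKM in the CL rats and 0.47, 0.41 and 2.21 FPKM in the FL rats (log2 fold change 1.95, adjusted p = 0.0514). It was called in 2 of 13 alternative settings, with adjusted p from 0.0428 to 0.176. Within the FL group, 4 of the 6 markers were highest in FL12, as was Ccl21, and 4 were lowest in FL5, as was Ccl21. The share of all genes with the same order among the FL rats was not counted, here or for the lists below. Reln, chosen after its values were seen, measured 8.23, 7.70 and 6.83 FPKM in the CL rats and 9.81, 12.69 and 10.86 FPKM in the FL rats, without overlap, at a log2 fold change of 0.54 (adjusted p = 0.0326) that was under the 2-fold limit. Pdpn lay between 0.04 and 0.41 FPKM in the 6 rats, with overlap. Ccr7 was low as well, at 0.05, 0.14 and 0.06 FPKM in the CL rats and 0.26, 0.19 and 0.12 FPKM in the FL rats, and was not called (log2 fold change 0.67, adjusted p = 0.289). Its CL mean of 0.0833 FPKM was under 0.1 FPKM, so Ccr7 was tested only because of its FL values. The part of lymphatic endothelial cells in the Ccl21 result was not tested, and in bulk liver more cells of a type and more RNA per cell cannot be told apart, nor can fewer cells and less RNA per cell.

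Ccl2 attracts monocytes through Ccr2. Ccl2 (ENSRNOG00000007159, chromosome 10) measured 0.05, 0.37 and 0.26 FPKM in the CL rats, and 1.95, 1.05 and 1.27 FPKM in the FL rats. Each FL rat was above each CL rat, with FL2 the highest, although the levels were low in all 6. The means were 0.227 ± 0.163 FPKM in CL and 1.42 ± 0.469 FPKM in FL (SD, n = 3 each), and Ccl2 rose by a log2 fold change of 2.33 (SE 0.45, 95% CI 1.28 to 3.38, adjusted p = 0.0135). The call was lost with a pseudocount of 1, where the log2 fold change was 0.97, and with quantile normalization, where it was 1.75 at an adjusted p of 0.065 (range over the alternatives 0.0113 to 0.065). Ccl7 lies next to Ccl2 in the genome and was picked after its values were seen. It measured 0, 0.08 and 0.06 FPKM in the CL rats and 0.04, 0.14 and 0.66 FPKM in the FL rats, was highest in FL12, where Ccl2 was not, and was not called (adjusted p = 0.289). The CL mean of Ccl7, 0.0467 FPKM, was under 0.1 FPKM, so it was tested only because of its FL values. Ccr2 measured 2.41, 1.44 and 0.65 FPKM in the CL rats and 2.79, 1.69 and 3.36 FPKM in the FL rats. The groups overlapped in Ccr2, and its log2 fold change of 0.88 did not pass the test (SE 0.44, adjusted p = 0.191).

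Ccl6 is a rodent CC chemokine made by macrophages that attracts monocytes and other leukocytes through Ccr1. Ccl6 (ENSRNOG00000030021, chromosome 10) measured 31.53, 31.26 and 34.26 FPKM in the CL rats, and 66.01, 65.99 and 35.30 FPKM in the FL rats. FL2 and FL5 nearly coincided well above the CL rats, while FL12 lay just above CL7. The means were 32.4 ± 1.66 FPKM in CL and 55.8 ± 17.7 FPKM in FL (SD, n = 3 each), with a log2 fold change of 0.73 (SE 0.24, 95% CI 0.18 to 1.27, adjusted p = 0.0672). Ccl6 was not called in the full comparison. This rested on FL12, since without it the log2 fold change was 1.03 at an adjusted p of 0.0117, the lowest of its alternatives (range 0.0117 to 0.244).

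Macrophage markers were set beside Ccl6. The sums of their levels were 234, 217 and 224 FPKM in the CL rats, 465 in FL2, 468 in FL5 and 268 in FL12. Of the 12 markers, 12 were tested, 3 were called higher and 0 lower, with a median log2 fold change of 0.74 beside 0.29 for all genes. C1qc was the most abundant, at 43.66, 43.50 and 39.64 FPKM in the CL rats and 77.43, 81.39 and 47.26 FPKM in the FL rats, and did not pass the test (log2 fold change 0.66, adjusted p = 0.0595). Marco, a scavenger receptor, rose by a log2 fold change of 2.06 (SE 0.32, adjusted p = 0.0069), from 8.74, 14.10 and 12 FPKM in the CL rats to 79.01, 43.88 and 31.46 FPKM in the FL rats. The other 2 called were Cd68 and Csf1r, chosen after their values were seen. Cd68 measured 11.58, 12.40 and 11.22 FPKM in the CL rats and 35.80, 48.48 and 31.81 FPKM in the FL rats (log2 fold change 1.69), and Csf1r 8.93, 8.26 and 8.10 FPKM and 18.02, 22.45 and 15.76 FPKM (1.13, called in 11 of 14 alternative settings). FL12 was the lowest FL rat in 12 of the 12 markers, as in Ccl6, and was above every CL rat in 7 of them. The share of all genes lowest in FL12 was not counted. Clec4f, a Kupffer cell marker also chosen after its values were seen, measured 49.90, 43.18 and 48.37 FPKM in the CL rats and 66.59, 57.44 and 26.27 FPKM in the FL rats, so that FL12 was below every CL rat. The part of macrophages in the Ccl6 and Ccl2 results was not tested.

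Ccl3 and Ccl5 attract monocytes, T cells and NK cells. Ccr1 is a receptor for both, and Ccr3 for Ccl5. Ccl3 (ENSRNOG00000011205, chromosome 10) measured 0.09, 0.23 and 0.32 FPKM in the CL rats, and 0.44, 0.80 and 0.26 FPKM in the FL rats. FL12 lay below CL7, so the groups overlapped, and all values were under 1 FPKM. The log2 fold change of Ccl3 was 0.91 (SE 0.46, 95% CI -0.14 to 1.97, adjusted p = 0.192). Ccl5 (ENSRNOG00000010906, chromosome 10) measured 1.35, 2.21 and 1.66 FPKM in the CL rats and 1.28, 2.49 and 1.70 FPKM in the FL rats. The spans of the groups nearly coincided, and FL2 was the lowest of the 6 rats. Its log2 fold change was 0.04 (SE 0.28, 95% CI -0.60 to 0.68, adjusted p = 0.928), so a doubling in either direction lay outside the interval, and it was -0.17 with median scaling, -0.42 with quantile normalization, -0.12 without CL5 and -0.20 without FL5.

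Ccr1, whose ligands include Ccl3, Ccl5 and Ccl6, was higher in each FL rat than in each CL rat, at 0.35, 0.37 and 0.42 FPKM in the CL rats and 0.77, 1.01 and 0.49 FPKM in the FL rats, but was not called (log2 fold change 0.79, adjusted p = 0.104). Ccr3 lay between 0.02 and 0.11 FPKM in the 6 rats and was not tested.

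Cxcl16 is a transmembrane chemokine that also acts as a scavenger receptor for oxidised lipid, and its shed form attracts T cells and NKT cells through Cxcr6. Cxcl16 (ENSRNOG00000026647, chromosome 10) measured 1.88, 2.86 and 2.71 FPKM in the CL rats, and 7.57, 11.17 and 11.50 FPKM in the FL rats. The lowest FL rat, FL2, was well above the highest CL rat, CL6. The means were 2.48 ± 0.528 FPKM in CL and 10.1 ± 2.18 FPKM in FL (SD, n = 3 each), and Cxcl16 rose by a log2 fold change of 1.98 (SE 0.22, 95% CI 1.47 to 2.48, adjusted p = 0.00296), or 1.69 above the median of all genes. It was called in 14 of 14 alternative settings, with adjusted p between 0.00191 and 0.0209.

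Cxcr6, the receptor of Cxcl16, was not called. It measured 0.19, 0.23 and 0.05 FPKM in the CL rats and 0.09, 0.23 and 0.06 FPKM in the FL rats. The groups overlapped at a low level, with a log2 fold change of -0.17 (SE 0.49, 95% CI -1.31 to 0.96, adjusted p = 0.825) that was 0.05 without CL6 and 0.04 without FL12. Adam10 and Adam17, proteases that shed Cxcl16, were picked after their values were seen. Both were higher in each FL rat than in each CL rat, with adjusted p of 0.00985 and 0.0112 and log2 fold changes of 0.77 and 0.63, under the 2-fold limit.

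Cxcl1 attracts neutrophils through Cxcr2. Cxcl1 (ENSRNOG00000002802, chromosome 14) measured 5.77, 4.49 and 4.21 FPKM in the CL rats, and 34.74, 6.52 and 2.97 FPKM in the FL rats. FL2 was by far the highest of the 6 rats and FL12 was the lowest. The log2 fold change of 0.87 did not pass the test (SE 0.75, 95% CI -0.85 to 2.59, adjusted p = 0.432) and rested on FL2, since it was -0.11 without that rat (adjusted p = 0.819, range over the alternatives 0.149 to 0.819). Cxcr2 measured 0.05, 0.23 and 0.16 FPKM in the CL rats and 0.48, 0.23 and 0.70 FPKM in the FL rats, with a tie between CL6 and FL5, and was not called (log2 fold change 1.19, SE 0.46, adjusted p = 0.109).

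Of the 7 neutrophil markers, 4 were tested and 3 of these called higher, with a median log2 fold change of 1.79 (1.85 over the 3 whose CL mean alone reached 0.1 FPKM) beside 0.29 for all genes. The median of the 4 tested was 1.62 with median scaling and 1.19 with quantile normalization. The summed levels were small, at 0.42, 0.83 and 1.08 FPKM in the CL rats and 4.47, 2.04 and 4.13 FPKM in the FL rats. The most abundant was S100a8, at 0.06, 0.46 and 0.57 FPKM in the CL rats and 2.20, 0.96 and 2.29 FPKM in the FL rats. S100a8 was called (log2 fold change 2.20, SE 0.57, adjusted p = 0.035), but the call was lost whichever rat was left out, with adjusted p from 0.0552 without CL7 to 0.116 without FL12. It was lost as well with no filter, no trend, a pseudocount of 0.01, median scaling and quantile normalization, where the adjusted p was 0.133. The log2 fold change of S100a8 was 1.55 without CL5. The other markers called, S100a9 and Csf3r, chosen after their values were seen, had log2 fold changes of 1.85 and 1.72, and were called in 3 and 9 of 13 alternative settings, with adjusted p up to 0.2 and 0.0945. Among the FL rats, 2 of the 4 markers tested were highest in FL2, as was Cxcl1, and 2 in FL12. Of the defining markers, Mpo and Elane, named after their values were seen, were at 0 in every CL rat and at most 0.06 FPKM in the FL rats. The part of neutrophils in the Cxcl1 values was not tested.

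Pf4 is stored in platelet granules, is also expressed by macrophages, and binds heparin strongly. Pf4 (ENSRNOG00000028015, chromosome 14) measured 1.19, 0.76 and 0.92 FPKM in the CL rats, and 2.09, 3.99 and 4.49 FPKM in the FL rats. Each FL rat was above each CL rat, and FL2 was the lowest of the FL group. The means were 0.957 ± 0.217 FPKM in CL and 3.52 ± 1.27 FPKM in FL (SD, n = 3 each), and Pf4 rose by a log2 fold change of 1.73 (SE 0.30, 95% CI 1.03 to 2.43, adjusted p = 0.0101). Without FL5 the call was lost, at a log2 fold change of 1.61 and an adjusted p of 0.0519 (range over the alternatives 0.0036 to 0.0519).

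Platelet markers were mostly below the level needed for the test. Of the 9 markers 8 were in the table, 2 were tested and 0 called in limma (0 with an unadjusted p under 0.05), and the median log2 fold change of those tested was 0.10 beside 0.29 for all genes, and -0.08 with median scaling and -0.40 with quantile normalization. In sum they gave 3.28, 2.13 and 2.24 FPKM in the CL rats and 3.45, 3.04 and 3.5 FPKM in the FL rats. Itga2b made up most of each sum, with 2.91, 1.75 and 1.90 FPKM in the CL rats and 2.85, 2.53 and 3.01 FPKM in the FL rats. The groups overlapped in Itga2b (log2 fold change 0.37, adjusted p = 0.244; -0.04 with quantile normalization). Named after their values were seen, the platelet glycoproteins Gp9, Gp1ba, Gp5 and Gp6 had no value above 0.08 FPKM in any rat. Treml1 and Tubb1, the remaining markers, also named after their values were seen, were somewhat higher. Treml1, too low to be tested, measured 0.03, 0.04 and 0 FPKM in the CL rats and 0.11, 0.14 and 0.08 FPKM in the FL rats, without overlap, and Tubb1 lay between 0.14 and 0.35 FPKM with overlap (log2 fold change -0.18, adjusted p = 0.763). Ppbp, a platelet chemokine that also counts among the other ligands and lies next to Pf4 in the genome, also named after its values were seen, was at 0 in 4 of the 6 rats and measured 0.04 FPKM in CL6 and 0.07 FPKM in FL5.

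Cxcl10 is induced by interferon gamma and attracts activated T cells and NK cells through Cxcr3. Cxcl10 (ENSRNOG00000022256, chromosome 14) measured 1.12, 1.48 and 1.01 FPKM in the CL rats, and 1.46, 1.89 and 0.94 FPKM in the FL rats. FL5 was the highest and FL12 the lowest of the 6 rats, so the FL group spanned the CL group. The log2 fold change was 0.20 (SE 0.28, 95% CI -0.45 to 0.84, adjusted p = 0.639), and it was -0.01 with median scaling, -0.31 with quantile normalization and -0.02 without FL5. The other ligands of Cxcr3, Cxcl9 and Cxcl11, were not called either. Cxcl9 measured 2.43, 2.57 and 4.66 FPKM in the CL rats and 2.10, 4.85 and 0.80 FPKM in the FL rats (log2 fold change -0.57, adjusted p = 0.494; 0.05 without FL12). Cxcl11 measured 5.69, 3.60 and 3.84 FPKM in the CL rats and 4.67, 4.50 and 3.88 FPKM in the FL rats. Its log2 fold change of 0.02 (adjusted p = 0.96) was -0.20 with median scaling, -0.31 with quantile normalization and from -0.11 to 0.22 when 1 rat was left out. All 3 ligands had their highest FL value in FL5 or, for Cxcl11, in FL2, and their lowest in FL12. Cxcr3 measured 0.15, 0.08 and 0.19 FPKM in the CL rats and 0.26, 0.34 and 0.18 FPKM in the FL rats, and was not called (adjusted p = 0.30).

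Of 16 interferon-inducible genes, which include Cxcl9 and Cxcl11, 16 were tested, 1 was called higher and 0 lower, and the median log2 fold change was 0.34 beside 0.29 for all genes, and -0.04 with quantile normalization. Together they summed to 60.5, 50.4 and 68.4 FPKM in the CL rats, 93.0 in FL2, 88.7 in FL5 and 52.0 in FL12. The sum of FL12 lay within the CL range, and FL12 was the lowest FL rat in 15 of the 16 genes, as in Cxcl10. How many of all genes were lowest in FL12 was not counted. Irf1, a transcription factor and the most abundant, measured 7.30, 6.73 and 8.16 FPKM in the CL rats and 15.10, 8.83 and 8.09 FPKM in the FL rats (log2 fold change 0.47, adjusted p = 0.181). The gene called was Gbp5, a guanylate-binding protein, which rose from 0.94, 1.18 and 0.72 FPKM to 2.95, 3.41 and 2.01 FPKM (log2 fold change 1.46, SE 0.26, adjusted p = 0.0101). The call of Gbp5 was lost with a pseudocount of 1 (0.95) and with quantile normalization (0.98, adjusted p = 0.0601, the highest of its range from 0.00827).

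Cxcl12 is made constitutively by stromal and endothelial cells and retains haematopoietic cells and lymphocytes that carry Cxcr4. Cxcl12 (ENSRNOG00000013589, chromosome 4) measured 32.12, 23.08 and 25.89 FPKM in the CL rats, and 35.25, 27.81 and 23.83 FPKM in the FL rats. The groups overlapped across most of their span. The means were 27.0 ± 4.63 FPKM in CL and 29.0 ± 5.80 FPKM in FL (SD, n = 3 each), with a log2 fold change of 0.09 (SE 0.18, 95% CI -0.32 to 0.51, adjusted p = 0.733). The value was -0.13 with median scaling, -0.05 with quantile normalization, -0.01 without CL6 and -0.06 without FL2. In each of these the size stayed well under the 2-fold limit.

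Cxcr4, the signalling receptor of Cxcl12, had the largest fold change among the receptors called. It measured 0.11, 0.14 and 0.34 FPKM in the CL rats and 1.14, 1.61 and 1.80 FPKM in the FL rats. Each FL rat was more than 3 times the highest CL rat, and Cxcr4 rose by a log2 fold change of 2.50 (SE 0.35, 95% CI 1.69 to 3.31, adjusted p = 0.00503). It was called in each of the 13 alternative settings that tested it, though its log2 fold change was 1.07 with a pseudocount of 1 and 1.95 with quantile normalization. Ackr3, an atypical receptor that removes Cxcl12 without signalling through G proteins, measured 0.75, 0.71 and 0.63 FPKM in the CL rats and 1.47, 1.29 and 1.73 FPKM in the FL rats. All FL rats were above all CL rats in Ackr3. Its adjusted p was 0.0161 and its log2 fold change, printed as 1.0, was just under the 2-fold limit, so that it was called without CL5 (1.04), without FL2 (1.0), without FL5 (1.09) and with a pseudocount of 0.01 (1.09). It was not called in the other 10 settings, and was 0.79 with median scaling, 0.55 with a pseudocount of 1 and 0.45 with quantile normalization, where the adjusted p was 0.201.

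A list of 17 signalling chemokine receptors, all in the table, had 11 tested, 3 called higher (Cxcr4, Cx3cr1 and Cxcr5) and 0 lower. Their median log2 fold change was 0.88 beside 0.29 for all genes, and also 0.88 over the 9 whose CL mean alone reached 0.1 FPKM. The median of the 11 tested was 0.67 with median scaling and 0.42 with quantile normalization. The summed levels of the 17 were 3.93, 3.44 and 2.67 FPKM in the CL rats and 7.69, 7.7 and 9.21 FPKM in the FL rats. Ccr2 was the most abundant. Cx3cr1, the receptor of fractalkine, measured 0.12, 0.49 and 0.16 FPKM in the CL rats and 0.95, 1.23 and 1.43 FPKM in the FL rats. It rose by a log2 fold change of 1.99 (SE 0.40, adjusted p = 0.0151), a call lost without CL7 (1.84), without FL12 (1.87), without FL5 (1.97), with a pseudocount of 1 (0.82) and with quantile normalization (1.42), at adjusted p up to 0.0638. Cxcr5, the B cell receptor for Cxcl13, measured 0.07, 0.14 and 0.20 FPKM in the CL rats and 0.38, 0.61 and 0.53 FPKM in the FL rats. Its log2 fold change was 1.38 (SE 0.36, adjusted p = 0.0344), and the call was lost in 8 of 13 settings: median scaling (1.22), a pseudocount of 1 (0.41), quantile normalization (0.78), and without CL5 (1.16), CL6 (1.41), CL7 (1.57), FL12 (1.34) or FL5 (1.25), with adjusted p up to 0.171. Of 9 names of atypical receptors, which include older names of the same genes, 4 were in the table, 4 were tested and 0 called in limma (1 with an unadjusted p under 0.05, Ackr3), with a median of 0.75. With median scaling their median was 0.61, and with quantile normalization 0.17. Their summed levels were 3.14, 2.56 and 3.21 FPKM in the CL rats and 4.13, 4.69 and 4.43 FPKM in the FL rats. Ackr4 was the most abundant, at 2.17, 1.62 and 2.29 FPKM in the CL rats and 2.03, 2.77 and 2.27 FPKM in the FL rats, with overlap (log2 fold change 0.21, adjusted p = 0.47). Ackr1, which binds several of the ligands, was not in the table.

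**Figure D2:**
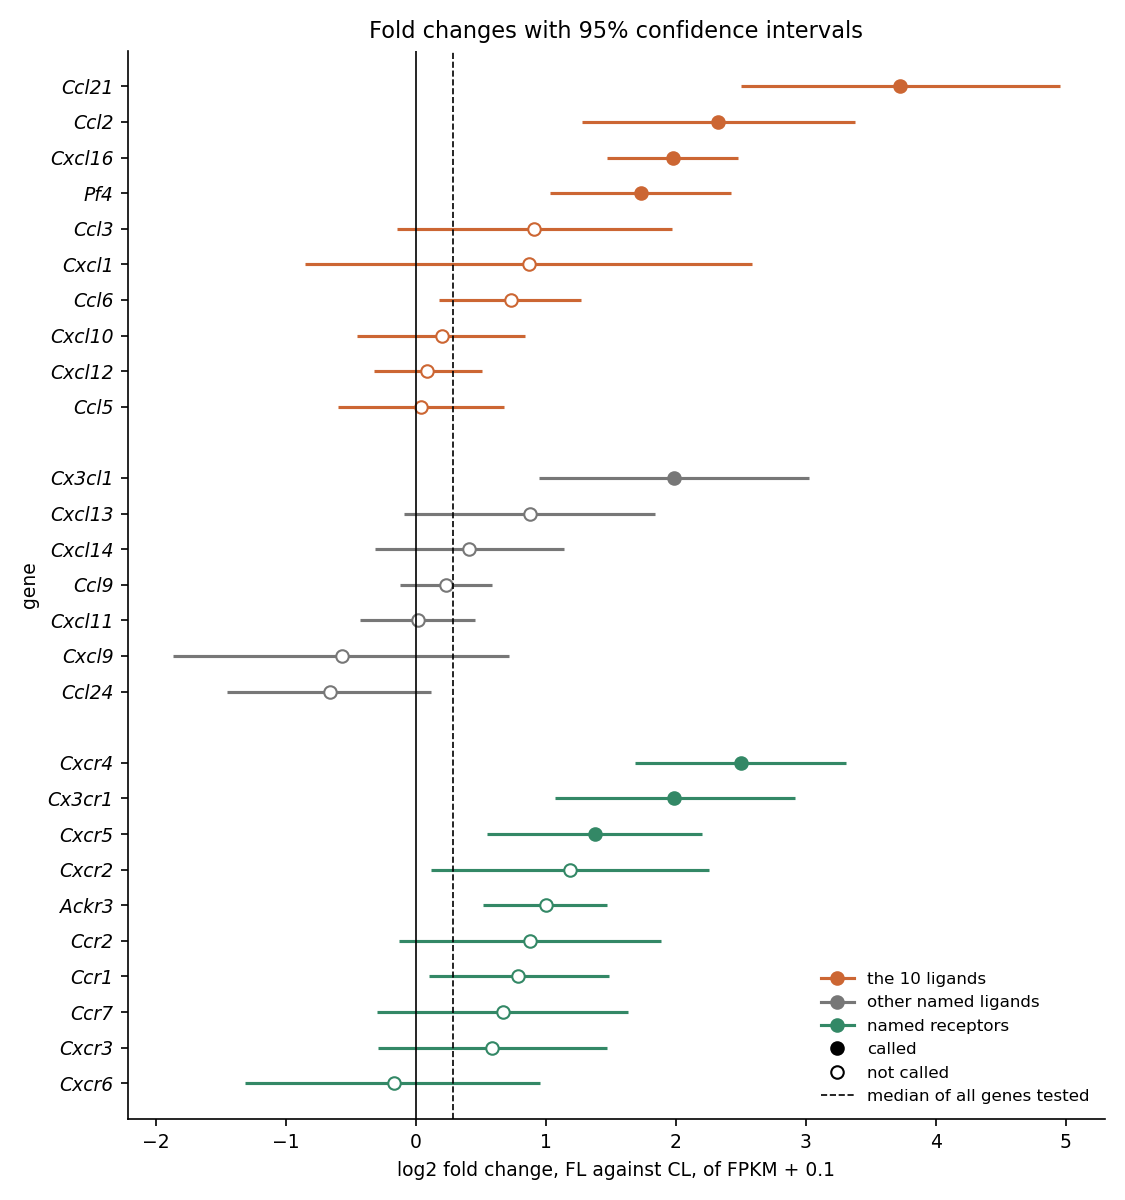
Log2 fold change of FL against CL, on FPKM + 0.1 (horizontal axis), with 95% confidence intervals, for the 10 ligands (orange), other named ligands (grey) and named receptors (green), with filled points for genes called and a dashed line at the median of all genes tested, 0.29. The points run from -0.66 in Ccl24 to 3.73 in Ccl21, and Ccl5, Cxcl10, Cxcl11 and Cxcl12, near 0, turn negative with median scaling and with quantile normalization, the latter also turning Cxcl14.

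Beyond the 10, the table held 26 further chemokine ligands, of which 12 were tested, 1 was called higher and 0 lower, with a median log2 fold change of 0.32 (0.23 over the 11 whose CL mean alone reached 0.1 FPKM) that was 0.11 with median scaling and -0.09 with quantile normalization. Ccl9, a macrophage chemokine that signals through Ccr1, far exceeded each of the 10 per length, at 161.15, 174.12 and 198.33 FPKM in the CL rats and 226.80, 184.03 and 216.57 FPKM in the FL rats. FL5 lay below CL7, so the groups overlapped (log2 fold change 0.23, SE 0.15, adjusted p = 0.313). The ligand called was Cx3cl1, or fractalkine, a membrane-bound chemokine, at 0.15, 0.21 and 0.15 FPKM in the CL rats and 0.50, 0.87 and 1.98 FPKM in the FL rats. Each FL rat was above each CL rat, and FL12 was the highest. Its log2 fold change was 1.99 (SE 0.45, adjusted p = 0.0226), and the call was lost without CL5 (1.94), CL6 (2.09), CL7 (1.94) or FL5 (2.06), with a pseudocount of 1 (0.80) and with quantile normalization (1.43), at adjusted p up to 0.0823. Ccl24, Cxcl13 and Cxcl14, which averaged 1 FPKM or more, did not pass. Ccl24, a ligand of Ccr3 made by macrophages, measured 1.97, 2.60 and 1.45 FPKM in the CL rats and 1.99, 1.05 and 0.81 FPKM in the FL rats (log2 fold change -0.66, adjusted p = 0.202), and was called lower without FL2 (-1.01, adjusted p = 0.0434, range over the alternatives 0.0434 to 0.468). Cxcl13, which attracts B cells, measured 0.47, 0.72 and 0.89 FPKM in the CL rats and 2.25, 1.49 and 0.67 FPKM in the FL rats (0.88, adjusted p = 0.172). Cxcl14 had a log2 fold change of 0.41 (adjusted p = 0.374), and of -0.10 with quantile normalization. The summed levels of the 26, mostly Ccl9, were 175, 188 and 213 FPKM in the CL rats and 243, 202 and 230 FPKM in the FL rats.

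Position in the genome was not used to choose the genes. In the RefSeq annotation of the rat assembly GRCr8, in which 10 of 10 were found by name, and among protein-coding genes only, 7 lay next to at least 1 other chemokine ligand and 3 (Ccl21, Cxcl12 and Cxcl16) did not. On chromosome 10, Ccl9, Ccl6, Ccl3 and Ccl4 follow each other, with Ccl5 on the far side of Ccl9. Ccl4, chosen after its values were seen, measured 0.60, 0.54 and 0.76 FPKM in the CL rats and 0.42, 0.96 and 0.63 FPKM in the FL rats, so its groups overlapped, as did those of Ccl3, Ccl5 and Ccl9, while those of Ccl6 overlapped with both scalings but not without them. On chromosome 14, Cxcl10 lies between Cxcl11 and Cxcl9, and none of the 3 was called. Pf4 lies between Cxcl3 and Ppbp, and Cxcl1 next to Cxcl2. Cxcl2 and Cxcl3, also chosen after their values were seen, reached at most 0.10 and 0.11 FPKM in any rat, so that Cxcl1 and Pf4 were each far above these neighbours per length. The level of closely related neighbours from uniquely mapped reads is uncertain where their sequences match.

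Promoter sequences are shown for Ccl21, which had the largest fold change, for Cxcl16, which had the lowest adjusted p, and for Cxcl1 and Cxcl10, known targets of NF-κB and of interferon, which were not called. The table of RefSeq promoters used here held 6 of the 10. The 250 bases before the annotated start were searched on both strands for the NF-κB consensus, for TGANTCA (an AP-1 motif) and for TTCNNNGAA (a STAT motif), which occur in 6.33%, 6.34% and 7.67% of all 33469 promoters of this length. Among the 6, 2 held the NF-κB consensus, with 3 matches in Cxcl10 and 2 in Cxcl1, some overlapping each other, 1 held TGANTCA (Cxcl10) and 0 held TTCNNNGAA. The sequences are from GRCr8, 5′ to 3′ on the strand of the gene, at chr5:61777516-61777765 (minus strand) for Ccl21, chr10:55669951-55670200 (minus strand) for Cxcl16, chr14:17479322-17479571 (minus strand) for Cxcl1 and chr14:15988816-15989065 (plus strand) for Cxcl10. Capitals mark the matches, which describe the letters only. Other motifs, such as the interferon-stimulated response element, were not searched for and would stand in lower case.
Ccl21: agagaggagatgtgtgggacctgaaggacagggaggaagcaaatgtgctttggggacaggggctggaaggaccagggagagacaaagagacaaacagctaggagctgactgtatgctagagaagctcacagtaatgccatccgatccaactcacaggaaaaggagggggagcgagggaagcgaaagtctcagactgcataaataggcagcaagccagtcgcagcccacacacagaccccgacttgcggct
Cxcl16: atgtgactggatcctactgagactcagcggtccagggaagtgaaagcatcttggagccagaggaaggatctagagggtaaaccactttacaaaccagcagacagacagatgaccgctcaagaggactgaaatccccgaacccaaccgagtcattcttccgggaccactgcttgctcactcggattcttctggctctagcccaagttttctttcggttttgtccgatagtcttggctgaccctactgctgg
Cxcl1: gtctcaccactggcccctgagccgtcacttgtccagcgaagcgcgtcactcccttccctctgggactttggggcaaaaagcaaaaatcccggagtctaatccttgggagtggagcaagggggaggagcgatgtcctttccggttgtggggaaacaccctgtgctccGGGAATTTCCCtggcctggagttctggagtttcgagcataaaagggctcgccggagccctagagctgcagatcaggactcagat
Cxcl10: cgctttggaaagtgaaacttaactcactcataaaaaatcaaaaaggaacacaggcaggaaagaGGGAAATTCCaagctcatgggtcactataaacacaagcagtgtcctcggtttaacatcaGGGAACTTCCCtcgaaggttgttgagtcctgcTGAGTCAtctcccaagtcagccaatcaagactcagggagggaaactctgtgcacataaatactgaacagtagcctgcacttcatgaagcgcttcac

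Of 13 NF-κB-inducible genes 12 were in the table, 11 were tested, 5 called higher and 0 lower, with a median log2 fold change of 0.72 beside 0.29 for all genes. Their summed levels were 43.0, 61.0 and 54.0 FPKM in the CL rats and 88.8, 108 and 69.5 FPKM in the FL rats. Zfp36, an RNA-binding protein that shortens the life of cytokine and chemokine transcripts, was the most abundant, at 9.52, 24.03 and 18.80 FPKM in the CL rats and 21.44, 44.52 and 10.03 FPKM in the FL rats. The groups overlapped in Zfp36 (log2 fold change 0.38, adjusted p = 0.632; -0.15 without FL5). Icam1, an adhesion molecule for leukocytes, rose from 5.13, 5.60 and 6.01 FPKM to 13.49, 11.06 and 13.48 FPKM, with no overlap (log2 fold change 1.17, SE 0.13, adjusted p = 0.00307). With median scaling and quantile normalization Icam1 fell short of the 2-fold limit, at 0.94 and 0.92. The others called, Tnfaip3, Birc3, Nfkb2 and Relb, chosen after their values were seen, had log2 fold changes of 1.07, 1.16, 1.02 and 1.13, and were called in 7, 11, 8 and 7 of 14 alternative settings, with adjusted p up to 0.17 for Tnfaip3. Of the 11 tested, 6 were highest of the FL rats in FL2, as was Cxcl1, and 5 were lowest in FL12, as was Cxcl1. Another 3 were lowest in FL2 and 3 in FL5, and the share of all genes with the same order was not counted. The part of NF-κB signalling in the ligand results was not tested.

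Genes of proteins that bind or process chemokines formed a further list of 7, of which 7 were tested, 1 was called higher and 0 lower, with a median log2 fold change of 0.63 (0.34 over the 6 whose CL mean alone reached 0.1 FPKM) and summed levels of 135, 146 and 167 FPKM in the CL rats and 109, 140 and 141 FPKM in the FL rats. Mmp2, a gelatinase that trims Cxcl12, rose from 2.77, 3.36 and 2.54 FPKM to 10.52, 19.23 and 20.83 FPKM (log2 fold change 2.45, SE 0.26, adjusted p = 0.00236). Sdc4, a heparan sulfate proteoglycan and the most abundant of the list, measured 83.48, 94.23 and 111.26 FPKM in the CL rats and 48.65, 57.98 and 59.12 FPKM in the FL rats. Each FL rat was below each CL rat, with a log2 fold change of -0.80 (SE 0.15, adjusted p = 0.0119) that was within the 2-fold limit, and of -1.02, past it, with median scaling.

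Markers of the remaining cell types of liver give the setting of these levels. The T and NK cell markers, cells that several of the ligands attract, had 12 in the table, 10 tested and 3 called higher, with a median log2 fold change of 0.76 (2 called and a median of 0.47 over the 9 whose CL mean alone reached 0.1 FPKM) and summed levels of 12.8, 11 and 12.1 FPKM in the CL rats and 25.1, 31.3 and 25.0 FPKM in the FL rats. The median of the 10 tested was 0.58 with median scaling and 0.17 with quantile normalization. Cd4, which macrophages also express, made up most of the sum and rose from 9.93, 8.27 and 8.22 FPKM to 18.17, 23.85 and 21.32 FPKM (log2 fold change 1.25, SE 0.14, adjusted p = 0.00308). Cd8b measured 0.02, 0.07 and 0.04 FPKM in the CL rats and 1.02, 0.49 and 0.36 FPKM in the FL rats, and was called (log2 fold change 2.24, SE 0.43, adjusted p = 0.0127), a result lost without CL7 (2.23, adjusted p = 0.0506), with a pseudocount of 1 (0.62) and with quantile normalization (1.70, adjusted p = 0.0676, the highest of its range from 0.0122). Its CL mean of 0.0433 FPKM was under 0.1 FPKM, so Cd8b was tested only because of its FL values, and a call in a gene so selected is no independent evidence of a rise. Cd8a, chosen after its values were seen, measured 0.79, 0.22 and 0.48 FPKM in the CL rats and 0.93, 2.57 and 0.43 FPKM in the FL rats, with overlap, and was not called (adjusted p = 0.25). Cd2, chosen after its values were seen, was the other gene called (1.39, adjusted p = 0.0233), in 7 of 13 alternative settings, with adjusted p up to 0.198. The defining T cell markers Cd3d, Cd3e and Cd3g, named after their values were seen, stayed at or below 1.03 FPKM and were not called. Of 5 B cell markers, 2 were tested and 0 called in limma (median 0.86, but 0.29 with quantile normalization, 1 with an unadjusted p under 0.05), with sums of 0.66, 0.83 and 0.71 FPKM in the CL rats and 2.02, 1.61 and 1.15 FPKM in the FL rats. Cd79a, the most abundant of them, had a log2 fold change of 0.96 (adjusted p = 0.0781), and was called without FL12 (1.26, adjusted p = 0.0406).

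Stellate cell and myofibroblast markers gave 4 calls of 8 tested, of 9 in the list, with a median log2 fold change of 1.59. Their sums were 80.0, 86.5 and 78.6 FPKM in the CL rats, 196 in FL2, 534 in FL5 and 483 in FL12. FL2 was the lowest FL rat in 8 of the 8 tested. Col3a1, the most abundant, rose from 46.54, 51.80 and 48.65 FPKM to 140.46, 341.67 and 338.60 FPKM (log2 fold change 2.37, SE 0.32, adjusted p = 0.0049), and Col1a1 rose from 2.12, 3.77 and 2.12 FPKM to 17.00, 101.22 and 73.73 FPKM (4.24, SE 0.60, adjusted p = 0.00519). The log2 fold change of Col1a1 was 5.02 without FL2 and 3.73 without FL5. Des and Pdgfrb, also called and chosen after their values were seen, had log2 fold changes of 2.28 and 1.69. The other markers tested, Acta2, Tagln, Timp1 and Lrat, named after their values were seen, were not called. Acta2 measured 3.85, 2.62 and 2.68 FPKM in the CL rats and 3.87, 17.32 and 9.59 FPKM in the FL rats. Adjusted p was 0.0609 for Acta2, 0.0621 for Tagln (log2 fold change 1.04) and 0.0795 for Timp1 (1.29). Lrat had a log2 fold change of -0.07 (adjusted p = 0.758). Col1a2, at most 0.18 FPKM in any rat, was not tested. Of 7 sinusoidal endothelial markers 6 were in the table and tested and 0 called in limma (median -0.00, 2 with an unadjusted p under 0.05), with sums of 88.9, 77.8 and 74.8 FPKM in the CL rats and 96.4, 75.8 and 79.6 FPKM in the FL rats, led by Fcgr2b (log2 fold change -0.14, adjusted p = 0.571). Stab2, chosen after its values were seen, was the 1 marker of these with an adjusted p under 0.05, at 12.78, 11.08 and 9.58 FPKM in the CL rats and 18.47, 16.54 and 21.20 FPKM in the FL rats, and its log2 fold change of 0.75 (adjusted p = 0.0143) was under the 2-fold limit. Of 5 cholangiocyte markers 5 were tested and 0 called (median 0.33, or 0.16 over the 4 whose CL mean alone reached 0.1 FPKM, 1 with an unadjusted p under 0.05), with sums of 5.38, 7.75 and 5.58 FPKM and 5.38, 8.06 and 11.3 FPKM, led by Epcam (0.33, adjusted p = 0.36). Of 8 hepatocyte markers 8 were tested and 0 called (median -0.10, but -0.33 with median scaling and 0.29 with quantile normalization, 1 with an unadjusted p under 0.05), with sums of 51229, 48761 and 49264 FPKM in the CL rats and 41651, 43302 and 42251 FPKM in the FL rats. By sign, 4 had a positive and 4 a negative log2 fold change. Alb, most of the sum, led these at 33392.03, 31431.05 and 31991.75 FPKM in the CL rats and 24148.61, 25052.10 and 25209.35 FPKM in the FL rats, so that each FL rat was below each CL rat. Apoa1, chosen after its values were seen, went the other way, at 1126.21, 1183.17 and 1136.25 FPKM in the CL rats and 1535.26, 2134.70 and 2088.39 FPKM in the FL rats (0.73, adjusted p = 0.10). The log2 fold change of Alb, -0.38, did not pass the test (SE 0.98, adjusted p = 0.804, range over the alternatives 0.0789 with no trend to 0.952 with no filter), and was 0.49 with quantile normalization. This SE is limma's moderated one, and the rats themselves varied little, with means of 32272 ± 1010 FPKM in CL and 24803 ± 572 FPKM in FL (SD, n = 3 each). The part of these cell types in the ligand results was not tested.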

How the data were processed

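RNA from whole liver of 3 FL and 3 CL rats was sequenced, with 1 library per rat, and rats were grouped by their labels. The authors used FASTX-Toolkit for trimming and TopHat2 for alignment, and took reads that mapped to a single place. The deposited values are FPKM, with no scaling between rats stated. Their labels name the build GRCh38, while 19616 of 19616 gene identifiers are Ensembl's of the rat. How strands were used for the gene values was not stated. Read counts were not used here, and 2 further columns of values were not used because no sample carries their names. Pairs of rats had the same value above 0 in 0.99% to 2.87% of genes.

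FL was compared with CL by limma 3.58.1 in R 4.3.3 on log2(FPKM + 0.1), two-sided, with limma's trend option. Genes averaging 0.1 FPKM or more over the 6 rats were tested, and p-values were adjusted over all 14864 by Benjamini and Hochberg. The method was tested on simulated data. The alternatives were pseudocounts of 1 and 0.01, no filter, a mean of at least 1 FPKM, median scaling, quantile normalization, no limit on the fold change, no trend, a robust prior and leaving out each rat. Summaries and figures used Python 3.11.15 with matplotlib 3.10.9, scipy 1.17.1, pandas 2.3.3 and numpy 2.4.6.

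The lists were 17 chemokine receptors, atypical receptors, interferon-inducible and NF-κB-inducible genes, genes of chemokine processing and binding, and markers of macrophages, neutrophils, platelets, T and NK cells, B cells, lymphatic and sinusoidal endothelium, stellate cells and myofibroblasts, cholangiocytes and hepatocytes. Named were the 10 ligands, other ligands called or averaging 1 FPKM or more, receptors of the list called or binding one of the 10, and, of each further list, the most abundant gene, the called gene with the largest fold change and any gene at 0 in every rat. Of the atypical receptors Ackr3 was taken, and Ackr4, the most abundant, was left out of the counts of alternatives below. Genes named outside this rule are marked in the text as chosen after their values were seen. The members and lists were chosen with earlier results of these data known.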

Additional observations from a re-analysis of the deposited data

How the results depend on the processing

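Ccl21 and Cxcl16 were called in all 14 alternatives, Pf4 in 13 of 14 and Ccl2 in 11 of 13. Members called higher numbered 3 to 5 when 1 rat was left out, and 3 or 4 in the other alternatives. Of all genes, 854 were called higher with a mean of at least 1 FPKM, 826 with median scaling, 462 with a pseudocount of 1, 453 with quantile normalization, 2518 with no limit on the fold change, and 682 to 1833 when 1 rat was left out. Called lower were 72 with a pseudocount of 1, 231 with quantile normalization, 288 with no limit on the fold change, and 80 to 159 when 1 rat was left out.

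Log2 fold changes changed sign as follows, and the cause was not tested. With median scaling they were -0.17 for Ccl5, -0.01 for Cxcl10, -0.13 for Cxcl12 and -0.20 for Cxcl11. With quantile normalization they were -0.42 for Ccl5, -0.31 for Cxcl10, -0.05 for Cxcl12, -0.31 for Cxcl11, -0.10 for Cxcl14, -0.04 for Itga2b and 0.49 for Alb. When 1 rat was left out they ran from -0.20 to 0.26 for Ccl5, -0.11 to 1.64 for Cxcl1, -0.02 to 0.45 for Cxcl10, -0.06 to 0.23 for Cxcl12, -0.11 to 0.22 for Cxcl11, -1.18 to 0.05 for Cxcl9, -0.52 to 0.05 for Cxcr6 and -0.15 to 0.92 for Zfp36.

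For the 10 ligands, 122 values kept direction and side of the threshold, 12 changed sign, 3 lost the call and 1 gained it. For the other genes that the naming rule takes, leaving out Ackr4, these numbers were 435, 14, 37 and 7. Reads per library are unknown, so no counting error is given, and Ccl2 and Ccl3, with means under 1 FPKM, were not tested with the stricter filter. The comparison was unpaired, since the groups were made up of different rats.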
